A study of Mus musculus with 14 samples.

Results

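Mitochondria make a few proteins of their own and take in all others from the cytosol, and the genes described here serve both tasks. The Mrpl and Mrps genes are named for proteins of the large and the small subunit of the mitochondrial ribosome. This ribosome translates only the messenger RNAs of the mitochondrial genome. The name does not always give the place of the protein, as for the Mrps18 genes below. The Tomm genes encode the translocase of the outer membrane, the entry gate for proteins made in the cytosol, and the Timm genes encode the inner membrane translocases and the small chaperones of the space between both membranes. Disc cells sit in a tissue with few vessels and are known for making much of their energy by glycolysis, whereas skeletal muscle is rich in mitochondria.

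The members were chosen by name alone, as all protein-coding genes whose symbol is Mrpl, Mrps, Timm or Tomm followed by a number. There were 103 of them among 55487 genes in the table of gene counts, made up of 49 Mrpl and 29 Mrps genes (the mitoribosome, 78 genes) and 15 Timm and 10 Tomm genes (import, 25 genes). RNA was sequenced from the tail intervertebral discs of 14 male mice, with 5 discs of each mouse pooled into 1 library. The db/db mice (n = 3) carry a leptin receptor mutation on both alleles and their db/+ controls (n = 3) on 1 allele, and both were 3 months old and received no treatment. The STZ-HFD mice (n = 4) were C57BL/6J mice, 12 weeks old at the start, that ate a high fat diet for 4 to 6 weeks, received 100 mg/kg of streptozotocin (STZ), a toxin of insulin-producing cells, and stayed on the diet for another 12 weeks. Their Con+Veh controls (n = 4) were wild-type C57BL/6J mice on chow that received vehicle. The heterozygous controls therefore carry the mutant allele too, and the diet cannot be told apart from STZ in the other model.

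Many but not all promoters of the members hold sequence motifs that the choice by name did not use. RefSeq promoters (build GRCm38.p6, from 250 bases before to 50 bases after the start) were found for 91 of the 103 genes, 99 promoters in all. The letters CCGGAAG on either strand, a core that ETS factors such as GABP are known to bind, stood in 26 of 75 mitoribosome promoters (34.7%) and 10 of 24 import promoters (41.7%), against 8.86% of all 32851 promoters. The letters GCGCATG, part of the site of NRF1, stood in 8 mitoribosome promoters (10.7%) and 1 import promoter (4.17%), against 3.91% of all. The letters AAGATGG, as bound by YY1, stood in 17.3% and 12.5%, against 6.34% of all, and the E-box CACGTG in 9.33% and 20.8%, against 7.15% of all. At least 1 of these 4 motifs stood in 42 mitoribosome promoters (56%) and 17 import promoters (70.8%), against 22.9% of all. The set of all promoters was not matched to the members in base composition. Hits of different motifs overlapped in 0 promoters of members. A match to these letters describes the promoter and does not show binding.

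The 250 bases before the RefSeq start are shown for Mrpl33, the mitoribosome gene with the smallest adjusted p in STZ-HFD, and for Tomm70a and Tomm40, the outer membrane genes with the highest and the lowest log2 fold change in db/db. They lie at chr5:31613701-31613950 on the + strand for Mrpl33, chr16:57121464-57121713 on the + strand for Tomm70a and chr7:19715430-19715679 on the - strand for Tomm40, and capitals mark any of the 4 motifs on either strand.
Mrpl33: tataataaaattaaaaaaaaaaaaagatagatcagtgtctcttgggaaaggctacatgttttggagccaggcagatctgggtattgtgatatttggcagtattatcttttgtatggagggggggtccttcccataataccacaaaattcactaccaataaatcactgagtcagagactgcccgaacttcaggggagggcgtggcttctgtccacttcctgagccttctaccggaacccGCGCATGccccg
Tomm70a: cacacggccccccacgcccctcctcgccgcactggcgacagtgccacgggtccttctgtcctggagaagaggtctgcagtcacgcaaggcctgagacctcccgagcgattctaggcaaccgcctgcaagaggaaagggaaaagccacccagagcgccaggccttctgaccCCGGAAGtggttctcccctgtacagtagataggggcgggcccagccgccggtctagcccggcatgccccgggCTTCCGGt
Tomm40: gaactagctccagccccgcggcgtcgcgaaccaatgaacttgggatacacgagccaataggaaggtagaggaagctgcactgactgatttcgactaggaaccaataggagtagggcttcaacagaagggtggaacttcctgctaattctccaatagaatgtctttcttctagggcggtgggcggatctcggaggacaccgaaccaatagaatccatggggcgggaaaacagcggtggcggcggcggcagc
In these stretches Mrpl33 had 1 GCGCATG, Tomm70a had 2 CCGGAAG, and Tomm40 had 0 of the motifs.

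Total counts were 16076908 to 58943169 per library, and ribosomal RNA genes took 28.1% to 60.2% of them. The lowest total was that of STZ-HFD replicate 1. Its scaling factor (TMM) was 1.58, against 0.693 to 0.742 in the rest of its group. Its quality weight in limma was 0.379, against 0.688 to 1.53 in the rest of its group. Levels are in CPM, the counts of a gene per library scaled to a common size, on which 3 counts correspond to 0.0431 to 0.163 CPM, and this floor covers counting error only. Markers of the disc were present and moved with the groups. The summed level of 7 chondrocyte markers was 622 to 1319 CPM in STZ-HFD and 1412 to 3326 CPM in Con+Veh, and 5382 to 13906 CPM in db/db and 13313 to 23341 CPM in db/+, and 5 of them were lower in STZ-HFD at an adjusted p under 0.05. Of 5 markers of annulus and tendon 2 and of 6 macrophage markers 3 were lower in STZ-HFD in the same way, and 9 markers of the nucleus pulposus summed to 649 to 7787 CPM over all libraries. Their mean log2 level was only 2.18 to 4.90, so the markers did not contribute evenly to this sum. Of the 7 tested, 1 had a positive log2 fold change in db/db (median -1.37) and 5 in STZ-HFD (median 0.22). At an adjusted p under 0.05, 0 of them passed in either model. Markers of tissue around the disc were present and moved as well. The summed level of 12 skeletal muscle markers, of which 0 were at 0 in all libraries, was 10431 to 25268 CPM in STZ-HFD and 9105 to 11664 CPM in Con+Veh, and 3166 to 5526 CPM in db/db and 4835 to 9594 CPM in db/+. All 12 had a positive log2 fold change in STZ-HFD, 5 of them with an adjusted p under 0.05, and all 12 had a negative one in db/db, 1 of them with an adjusted p under 0.05. The summed level of 8 adipocyte markers was 985 to 1171 CPM in STZ-HFD and 459 to 995 CPM in Con+Veh, and 399 to 718 CPM in db/db and 229 to 481 CPM in db/+, with 1 marker in STZ-HFD and 4 in db/db higher at an adjusted p under 0.05. In discs sequenced as bulk tissue, fewer cells of a type and less RNA per cell cannot be told apart.

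Of the 103 members, 96 passed the filter of more than 1 CPM in at least 3 libraries, 76 of the mitoribosome and 20 of import. Per kilobase of exon, averaged over all 14 libraries, the highest levels within the families were those of Mrpl12 (18.5 CPM per kb), a large subunit protein, Mrps15 (11.7), Timm13 (9.19), a small chaperone between the membranes, and Tomm7 (6.27), a small subunit of the outer membrane translocase. The lowest were those of Mrpl53 (0.00744 CPM per kb), Mrps34 (0.0703), Timm8a2 (0.0089) and Tomm6 (0.0223), and none of these 4 passed the filter. The other members below it were Timm10, Tomm20l and Tomm40l.

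The low count of 4 of these 7 genes came with shared exons, while Timm10 and Timm8a2 share 0% and Tomm20l 6.81% of their exon bases. For Mrpl53, 88% of the exon bases overlap other annotated genes, and it had 2 counts in all libraries together in the gene table and 642 in the table of transcript estimates. For Tomm6, a small subunit of the outer membrane translocase, 84.2% of the exon bases are shared and the sums were 17 and 8032. Mrps34 shared 77.8% of its exon bases and had 71 counts against 19 in the transcript table, and Tomm40l shared 64.3% and had 245 against 608. The levels of Mrpl53, Tomm6 and Tomm40l therefore depend on which table is read. Over the 95 tested members with a transcript total, that total was 34% of the gene count at the median, against 27.3% over 14548 tested genes.

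The first comparison asked how the members differ between db/db and db/+ discs. Of the 76 mitoribosome genes 45 (59.2%) and of the 20 import genes 11 (55%) had a log2 fold change above 0, against 47.3% of all genes. The median log2 fold change was 0.15 for the mitoribosome and 0.11 for import, against -0.04 for all 16915 genes tested. Without db/+ replicate 3 the mitoribosome median was 0.0016, and without db/db replicate 1 the import median was -0.0323. The import median was also negative with the adipocyte score, without ribosomal RNA genes and with both other filters on low counts. The outer membrane genes lay on both sides, with a median of 0.55 for 7 Tomm genes that spanned -1.37 to 1.20, whereas the medians were 0.24 for 48 Mrpl, -0.00 for 28 Mrps and -0.12 for 13 Timm genes. A gene was called where limma's adjusted p was under 0.05 and its log2 fold change was 1 or more in size, which held for 0 of the 76 and 0 of the 20 members and for 1.66% of all genes. Without the minimum on size it held for 0 members as well and for 1.93% of all genes, 1.42% higher and 0.508% lower. At an unadjusted p under 0.05, 10 mitoribosome genes were higher and 3 lower and 4 import genes were higher and 4 lower, while 21.1% of all genes met this, 10.7% higher and 10.4% lower. edgeR's quasi-likelihood test and DESeq2 each called 0 members, where edgeR called 0 and DESeq2 1.25% of all genes.

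**Figure D1:**
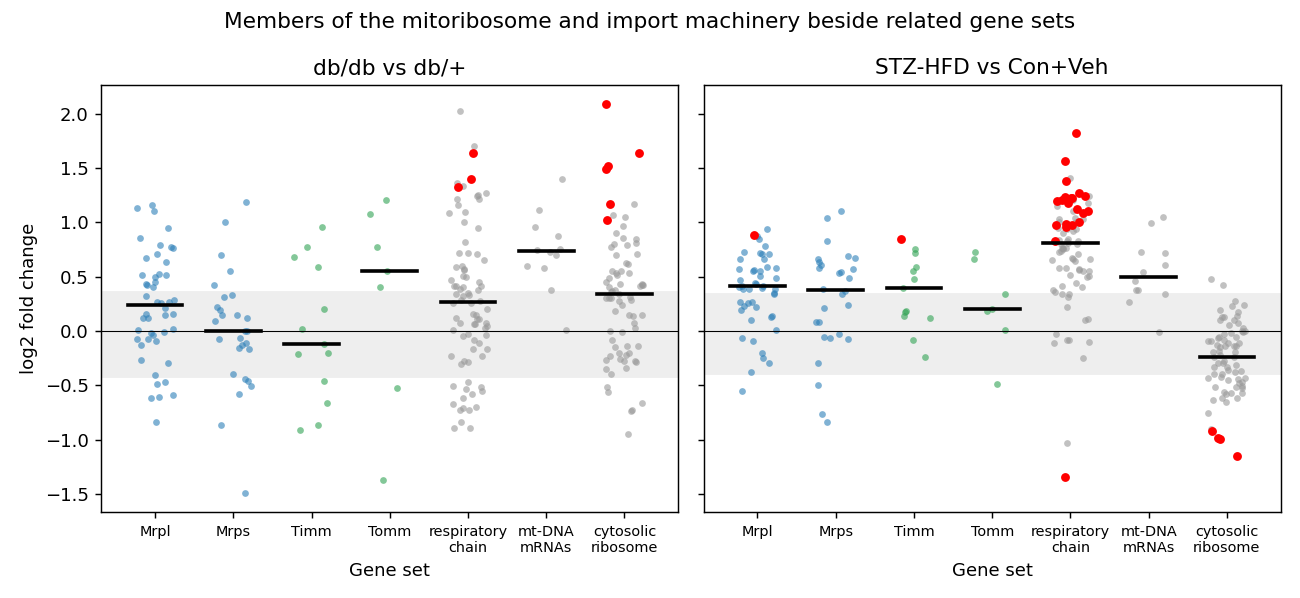
Log2 fold change (y axis) of each tested gene in db/db against db/+ (left) and STZ-HFD against Con+Veh (right), by gene set (x axis), with mitoribosome genes in blue, import genes in green, related sets in grey and genes with an adjusted p under 0.05 in red. Black bars are medians and the grey band spans the quartiles of all 16915 genes. In STZ-HFD the medians of the member families lie between 0.20 and 0.41, below the 0.81 of the respiratory chain.

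Tomm70a, an outer membrane receptor for carrier proteins, had the highest log2 fold change among the import genes. Its level was 97.1, 78 and 93.3 CPM in the db/db libraries and 39.4, 35.6 and 42.1 CPM in the db/+ libraries. Every db/db library lay above every db/+ library, and the log2 fold change was 1.20 with an SE of 0.35 and an adjusted p of 0.077. In the other model its level was 40.6, 30.8, 84.4 and 40.8 CPM in STZ-HFD and 27.7, 72.2, 24.5 and 41.9 CPM in Con+Veh, so these groups overlapped.

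Tomm40, the channel of the same translocase, lay on the other side. It was at 1.83, 1.92 and 4.63 CPM in db/db and 5.33, 8.68 and 5.72 CPM in db/+, again without overlap. The log2 fold change was -1.37 with an SE of 0.35 and an adjusted p of 0.052. The receptor Tomm20 had a log2 fold change of 0.55 (adjusted p 0.31) and the receptor Tomm22 one of 0.77 (adjusted p 0.38), and Tomm7 had 1.07 with an adjusted p of 0.10. Tomm34, a cytosolic cochaperone that shares the family name, had -0.52 with an adjusted p of 0.20. Of the 7 tested Tomm genes 5 had a positive log2 fold change in db/db, and the negative ones were Tomm40 and Tomm34. Among the tested subunits of the outer membrane translocase, Tomm40 alone was thus negative, and none passed the test. The transcript total of Tomm40 was 7.72% of its gene count.

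The 13 tested Timm genes were divided, with 6 above 0 and 7 below. Timm17b, a channel subunit of the presequence translocase, was at 9.05, 6.07 and 8.19 CPM in db/db and 14, 19.5 and 9.93 CPM in db/+, and its log2 fold change was -0.91 with an adjusted p of 0.081. Its paralog Timm17a had 9.89 ± 1.67 CPM in db/db and 11.3 ± 2.57 CPM in db/+ (SD, n = 3 each) and a log2 fold change of -0.21 with an interval from -0.74 to 0.31. Timm44, which ties the import motor to the channel, was at 12.0, 6.76 and 7.42 CPM in db/db and 17.6, 13.1 and 16.1 CPM in db/+, with a log2 fold change of -0.87 and an adjusted p of 0.077. Both Timm17b and Timm44 had db/db libraries that all lay below the db/+ libraries. Timm21 had the highest value of the family, 0.96 with an adjusted p of 0.12, and the channel genes Timm23 and Timm22 and the receptor Timm50 had -0.46, 0.59 and -0.20, with adjusted p of 0.42, 0.26 and 0.77.

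Among the mitoribosome genes the lowest value was that of Mrps27. It was at 0.897, 1.34 and 1.04 CPM in db/db and 3.55, 3.83 and 2.02 CPM in db/+, with a log2 fold change of -1.49, an SE of 0.39 and an adjusted p of 0.054. Its 57 to 220 counts in these libraries are few, and 24.2% of its exon bases are shared with another gene. The highest values were those of Mrps18c (1.19, adjusted p 0.13) and Mrpl32 (1.16, adjusted p 0.11). Mrpl34, Mrpl43 and Mrps6, which the naming rule did not select and which are given for adjusted p under 0.1, had 1.13, 1.10 and 1.00, with adjusted p of 0.093, 0.094 and 0.097. Mrps6, for instance, was at 28.1, 27.2 and 31.4 CPM in db/db and 17.9, 11.7 and 14.7 CPM in db/+. Mrps6 and Mrpl43 share 19.9% and 33.4% of their exon bases with other genes, and Mrpl34 shares 0%. The transcript total of Mrps6 was 12.5% of its gene count. At the other end of the large subunit, Mrpl54 had -0.84 with an adjusted p of 0.16.

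The levels of 22 of 76 mitoribosome genes (28.9%) and 9 of 20 import genes (45%) did not overlap between the 3 db/db and the 3 db/+ libraries, against 25.8% of all genes. Of these, 19 and 5 were higher in db/db and 3 and 4 lower, while 14.1% of all genes were higher and 11.7% lower without overlap. The 95% interval of the log2 fold change had a median distance from centre to end of 0.68 in both sets, and it lay within -1 to 1 for 38 mitoribosome and 5 import genes.

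**Figure D2:**
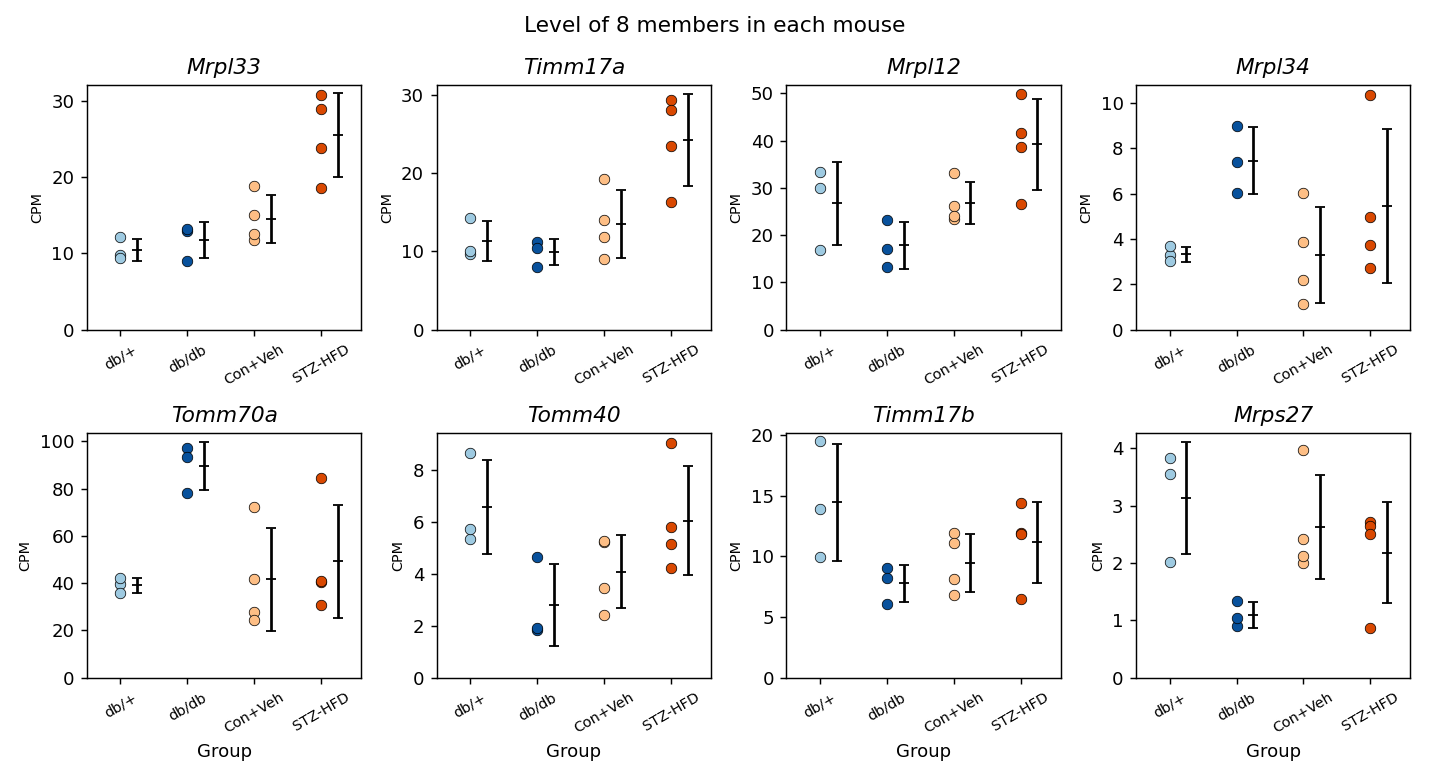
Level in CPM (y axis) of 8 members in each library of the 4 groups (x axis), with the mean and SD beside the points. Tomm70a and Mrpl34 in db/db lie above all db/+ libraries and Tomm40, Timm17b and Mrps27 below them, while Mrpl33 and Timm17a are highest in STZ-HFD with slight overlap with Con+Veh.

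The fold changes of the members in db/db went with the GC content of their transcripts. Over the 96 genes Spearman's rho was -0.53, and it was -0.49 for the mitoribosome and -0.72 for import, against -0.43 over 16899 tested genes with a GC value. Of the 48 members with the lower GC content (38.6% to 49.4%), 39 had a positive log2 fold change and the median was 0.32, and of the 48 with the higher GC content (49.4% to 60.4%) 17 were positive and the median was -0.12. In STZ-HFD rho was -0.15 over the 96 genes and -0.08 over all genes. Tomm70a has 40.7% GC and Tomm40 54.1%, and the gene with less GC had the positive value in db/db. Single genes also went the other way, such as Mrpl34 with 58.3% GC and a log2 fold change of 1.13. These are descriptions across genes, which share the same libraries. With the GC trend of each library removed, the db/db medians were 0.13 for the mitoribosome and 0.25 for import.

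**Figure D3:**
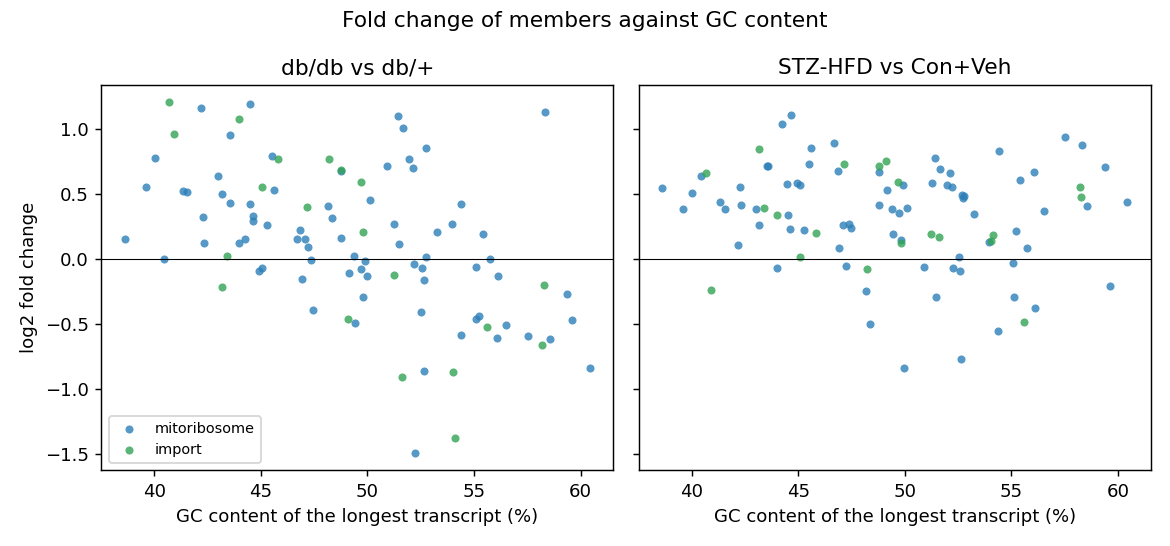
Log2 fold change (y axis) of each tested member against the GC content in percent of its longest transcript (x axis) in db/db against db/+ (left) and STZ-HFD against Con+Veh (right). In db/db the points fall with GC content, with rho of -0.53 over 96 genes, and in STZ-HFD rho is -0.15.

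The second comparison asked the same of STZ-HFD and Con+Veh discs. Here most members lay above zero, 61 of 76 mitoribosome genes (80.3%) and 17 of 20 import genes (85%), against 47.2% of all genes. The median log2 fold change was 0.40 for the mitoribosome and 0.27 for import, and by family 0.41 for Mrpl, 0.37 for Mrps, 0.39 for Timm and 0.20 for Tomm, against -0.04 over all genes. The summed level of the mitoribosome genes was 614, 582, 900 and 782 CPM in STZ-HFD and 436, 708, 572 and 578 CPM in Con+Veh. That of the import genes was 201, 209, 311 and 250 CPM in STZ-HFD and 170, 255, 194 and 209 CPM in Con+Veh. The groups overlapped in both sums, STZ-HFD replicate 3 was highest and Con+Veh replicate 1 lowest in each.

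**Figure D4:**
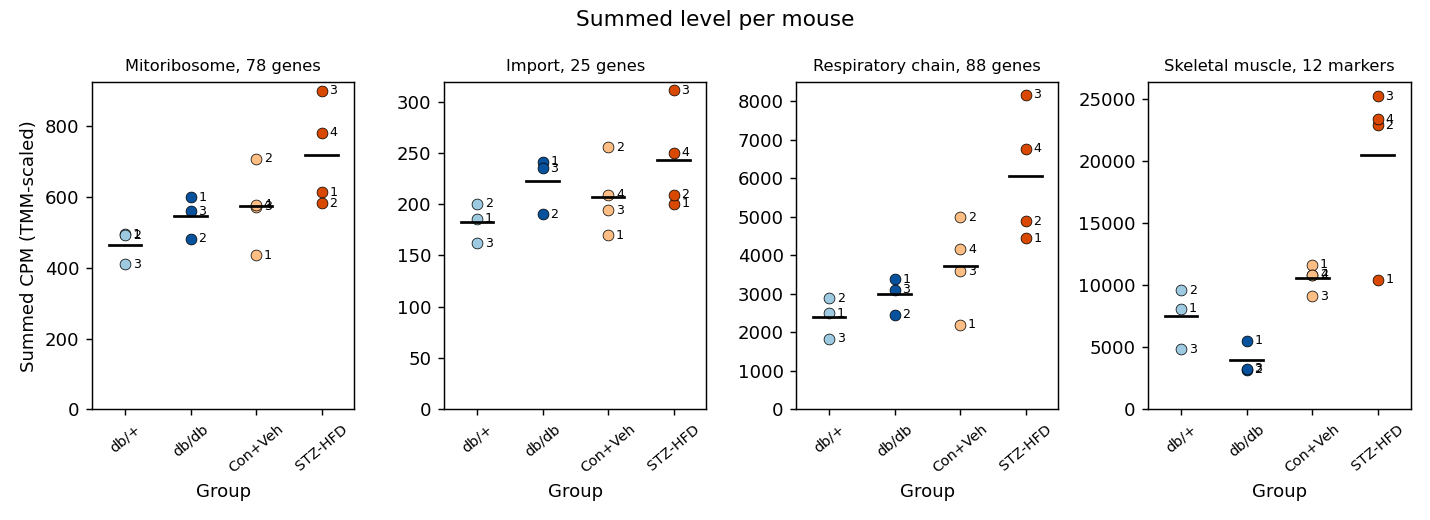
Summed level in CPM (y axis) of the 78 mitoribosome genes, the 25 import genes, 88 nuclear respiratory chain genes and 12 skeletal muscle markers in each library, numbered by replicate, of the 4 groups (x axis), with bars at the group means. The sums of the mitoribosome are 582 to 900 CPM in STZ-HFD and 436 to 708 CPM in Con+Veh, and STZ-HFD replicate 3 has the highest value in all 4 panels.

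No member reached the rule for a call, which 2.61% of all genes did. With limma, 0 of 76 and 0 of 20 were called in STZ-HFD, edgeR's quasi-likelihood test called 0 and 0 and 0.171% of all genes, and DESeq2, which called 1.61% of all genes, called Mrps35 alone, with a log2 fold change of 1.52 and an adjusted p of 0.040. Mrps35 was at 22.2, 3.85, 6.24 and 6.99 CPM in STZ-HFD and 3.23, 4.67, 3.24 and 2.66 CPM in Con+Veh. STZ-HFD replicate 1, with a low quality weight of 0.379, thus stood far above the rest, and limma gave 1.04 with an adjusted p of 0.11. At an unadjusted p under 0.05, 17 mitoribosome genes (22.4%) were higher and 2 lower and 3 import genes (15%) were higher and 1 lower, while 17.9% of all genes met this, 8.34% higher and 9.54% lower. The levels did not overlap between groups for 2 mitoribosome genes, Mrpl2 and Mrpl51, and 0 import genes, against 4.74% of all genes. Both were higher in STZ-HFD, as were 1.97% of all genes, with 2.77% lower.

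Without a minimum on the fold change, 1 gene of each set had an adjusted p under 0.05, and both were higher in STZ-HFD. Of all genes 3.45% passed in this way, 1.65% higher and 1.8% lower. The first was Mrpl33, a small protein of the large subunit (chromosome 5 from 31596935 to 31664384 on the + strand of GRCm38). Its promoter printed above, with 1 GCGCATG, lies inside this span, before a RefSeq start that differs from the GENCODE gene start. Mrpl33 was at 28.9, 18.6, 30.8 and 23.8 CPM in STZ-HFD and 11.8, 18.8, 12.6 and 15.1 CPM in Con+Veh. Only the lowest STZ-HFD library lay within the range of the controls, and the gene rose, with a log2 fold change of 0.89, an SE of 0.21 and an adjusted p of 0.028. In the db model Mrpl33 had 11.7 ± 2.37 CPM in db/db and 10.4 ± 1.45 CPM in db/+ (SD, n = 3 each) and a log2 fold change of 0.15 with an interval from -0.34 to 0.64.

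The other was Timm17a, the paralog of Timm17b in the presequence translocase. It was at 29.3, 16.3, 23.4 and 28.0 CPM in STZ-HFD and 8.97, 19.3, 14 and 11.8 CPM in Con+Veh, with 1 library of each group inside the range of the other. The log2 fold change was 0.84 with an SE of 0.22 and an adjusted p of 0.047, and Timm17b had 0.17 with an adjusted p of 0.79. Both adjusted p depended on the setting. Under 28 alternatives Mrpl33 kept an adjusted p under 0.05 in 14 and Timm17a in 6, with log2 fold changes of 0.66 to 0.95 and 0.60 to 0.98. Without Con+Veh replicate 3 the adjusted p were 0.41 and 0.36, and without STZ-HFD replicate 3 they were 0.31 and 0.29. The highest Timm17a level, 29.3 CPM, was that of STZ-HFD replicate 1. Without that library the adjusted p were 0.032 for Mrpl33 and 0.060 for Timm17a.

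None of the other members passed in STZ-HFD. The highest log2 fold change of all members was that of Mrps31 (1.10, adjusted p 0.18), at 0.543 to 2.79 CPM, and the highest of the large subunit was that of Mrpl2 (0.94, adjusted p 0.15), which was at 10.9, 8.46, 7.42 and 7.88 CPM in STZ-HFD and 1.82, 4.11, 3.85 and 5.92 CPM in Con+Veh. Mrpl12, with the highest level per kilobase, had 39.2 ± 9.65 CPM in STZ-HFD and 26.7 ± 4.48 CPM in Con+Veh (SD, n = 4 each), a log2 fold change of 0.67 and an adjusted p of 0.15. The lowest values within the 4 families were those of Mrps2 (-0.84, adjusted p 0.17), Mrpl40 (-0.56, adjusted p 0.26), Tomm34 (-0.49, adjusted p 0.24) and Timm21 (-0.24, adjusted p 0.78). Of the core import genes, Timm23 had 0.75 (adjusted p 0.17), Tomm70a 0.66 (0.25), Timm22 0.59 (0.33), Timm50 0.48 (0.54), Tomm22 0.20 (0.71), Tomm40 0.18 (0.84), Timm44 0.14 (0.80) and Tomm20 0.01 (0.99). Tomm5 had the highest value of the Tomm family, 0.73 with an adjusted p of 0.61, on 3 to 66 counts per library in this model.

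Paralogs are near copies of a gene that can take on separate roles. Of the small chaperones, Timm8b had 0.20 in db/db and 0.12 in STZ-HFD, Timm8a1 had 0.68 and 0.72 at 0.22 to 2.42 CPM, and Timm10b had 0.77 and -0.08, with adjusted p between 0.16 and 0.93. The genes of the Mrps18 group, which occupy related places in the small and the large subunit, differed from each other in db/db. Mrps18c had 1.19, Mrps18a had -0.44 (adjusted p 0.31) and Mrps18b had -0.86 (adjusted p 0.25), and in STZ-HFD the values were 0.34, 0.21 and -0.77 with adjusted p of 0.70, 0.67 and 0.39. Mrps18c and Mrps18b share 23.2% and 30.5% of their exon bases with other genes. None of these paralogs passed the test in either model.

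The difference of both contrasts was tested for each member. It was past an adjusted p under 0.05 with limma for 0 of 76 and 0 of 20 members, a rule that 1.77% of all genes met (0.822% higher and 0.952% lower), and edgeR and DESeq2 called 0 members as well, where they called 0.0296% and 1.5% of all genes. At an unadjusted p under 0.05, the log2 fold change was higher in db/db than in STZ-HFD for 1 mitoribosome and 1 import gene and lower for 6 and 6, against 8.94% and 8.35% of all genes (17.3% together). The difference was above 0 for 31 mitoribosome and 7 import genes, and for 51.5% of all genes. The smallest adjusted p was that of Mrpl12, 0.083, with a difference of -1.27 between -0.61 in db/db and 0.67 in STZ-HFD. Tomm40 (-1.55, adjusted p 0.11), Mrpl2 (-1.53, adjusted p 0.12) and Timm17a (-1.06, adjusted p 0.11) followed. The interval of the difference reached a median of 0.95 to either side for the mitoribosome and 0.97 for import. By sign, 38 mitoribosome genes were positive in both models, 23 only in STZ-HFD, 7 only in db/db and 8 in neither, and of import these numbers were 9, 8, 2 and 1.

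The messenger RNAs that the mitoribosome translates and the proteins that depend on import gave a scale for these values. The nuclear genes of the respiratory chain, whose proteins are imported, had a median log2 fold change of 0.81 over 84 genes in STZ-HFD. At an adjusted p under 0.05, 20 of them rose and 1 fell, while 1.65% of all genes rose and 1.8% fell. With the minimum on the fold change, 15 were called higher and 1 lower. Calls in STZ-HFD depended on few libraries and on limma's quality weights. Of all genes 2.61% were called, against 0.112% with unweighted voom. The share was 0.102% without Con+Veh replicate 3, 0.108% without Con+Veh replicate 4 and 0.107% without STZ-HFD replicate 3. Examples are Cox8b, a cytochrome oxidase subunit of heart and skeletal muscle, with 1.82 (adjusted p 0.011), Atp5a1, a subunit of ATP synthase, with 1.10 (adjusted p 0.028), and Cox4i2, which fell by 1.35 (adjusted p 0.035). The 12 tested messenger RNAs of the mitochondrial genome had a median of 0.50, and none passed. The proteins of the cytosolic ribosome had a median of -0.24 over 75 genes, and 4 fell and 0 rose, Rps25 by 1.15 (adjusted p 0.040). The medians of the mitoribosome and of import, 0.40 and 0.27, lay between those of the respiratory chain and the cytosolic ribosome.

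In db/db the order was another. The median log2 fold change was 0.74 for the 12 messenger RNAs of the mitochondrial genome, 0.34 for the cytosolic ribosome, with 6 genes higher at an adjusted p under 0.05, and 0.27 for the respiratory chain, with 3 higher. Of all genes, 1.42% were higher and 0.508% lower in db/db at an adjusted p under 0.05. Rpl39 rose by 2.09 (adjusted p 0.019), and Cox6c rose by 1.33 (adjusted p 0.037). mt-Co2, which encodes a catalytic subunit of cytochrome oxidase, had 1.40 with an adjusted p of 0.097.

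In STZ-HFD, the medians of other genes that serve mitochondrial translation and import were mostly near those of the members. Of 13 translation factors, 12 had a positive log2 fold change in STZ-HFD with a median of 0.41, and Lrpprc, which stabilises mitochondrial messenger RNAs, rose from 15.3 ± 9.20 CPM in Con+Veh to 27.6 ± 8.80 CPM (SD, n = 4 each), a log2 fold change of 1.33 with an adjusted p of 0.016. These means are unweighted, whereas limma weighted Con+Veh replicates 1 to 4 by 0.275, 0.462, 3.05 and 1.81. Of 20 genes for charging mitochondrial transfer RNAs, 17 had a negative log2 fold change in db/db with a median of -0.27, and Aars2 and Sars2, the synthetases for alanine and serine, fell by 1.72 and 1.39 on the log2 scale with adjusted p of 0.038 and 0.037. In STZ-HFD 15 of these 20 were positive with a median of 0.23 and none passed. Of 16 other genes for sorting and processing, 13 were positive in STZ-HFD with a median of 0.54 and 9 had an unadjusted p under 0.05, and none passed after adjustment. The 8 genes of the import motor and the matrix chaperones were all positive there with a median of 0.48, the 25 assembly factors of the mitoribosome had a median of 0.25 and the 5 subunits of the mitoribosome with other names one of 0.53, and none passed. In db/db 0 genes of these last 4 lists passed, with medians of 0.04, 0.24, -0.06 and 0.28. The 13 translation factors had a median of -0.13 in db/db, and none passed.

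Regulators of these genes were read at the level of RNA. Ppargc1a, a coactivator of mitochondrial biogenesis, was at 28.3 ± 7.55 CPM in STZ-HFD and 18.1 ± 3.90 CPM in Con+Veh (SD, n = 4 each), with a log2 fold change of 0.94 and an adjusted p of 0.050 that missed the threshold. Yy1 had 0.92 in db/db with an adjusted p of 0.065. Nrf1, Gabpa and Gabpb1, which encode factors of the motifs printed above, had -0.31, 0.30 and 0.34 in db/db and 0.07, 0.44 and -0.44 in STZ-HFD. None of the 10 regulators passed in either model.

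The member medians were also taken from fits with a marker score as a covariate. With the mean log2 level of the 12 muscle markers as a covariate, the STZ-HFD medians were -0.03 for the mitoribosome and -0.09 for import, and the db/db medians were 0.44 and 0.44. With the adipocyte markers as a covariate, the STZ-HFD medians were 0.17 and 0.18, and the db/db medians were -0.14 and -0.34. The sign of the median was thus lost in STZ-HFD with the muscle score and in db/db with the adipocyte score. The adipocyte score was 5.105 to 5.639 in db/db and 3.575 to 4.475 in db/+, so that fit cannot tell group from score. It called 0% of all genes in db/db. The muscle score was 8.945 in STZ-HFD replicate 1, 10.166 to 10.373 in the rest of its group and 8.96 to 9.207 in Con+Veh. Group and muscle score are thus hard to tell apart as well. Leaving out any 1 library kept the STZ-HFD medians at 0.24 to 0.48 and 0.13 to 0.41, the lowest without STZ-HFD replicate 3, and without STZ-HFD replicate 4 the mitoribosome median was 0.26. These 2 libraries had muscle sums of 25268 and 23404 CPM. Without STZ-HFD replicate 2, which had a muscle sum of 22915 CPM, the medians were 0.47 for the mitoribosome and 0.37 for import. STZ-HFD replicate 1, the library with the lowest muscle sum of its group (10431 CPM, against 22915 to 25268 CPM), had an import sum of 201 CPM, the lowest of its group, and a mitoribosome sum of 614 CPM, above the 582 CPM of replicate 2. The part of muscle and fat tissue in the member values was not tested beyond these fits.

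**Figure D5:**
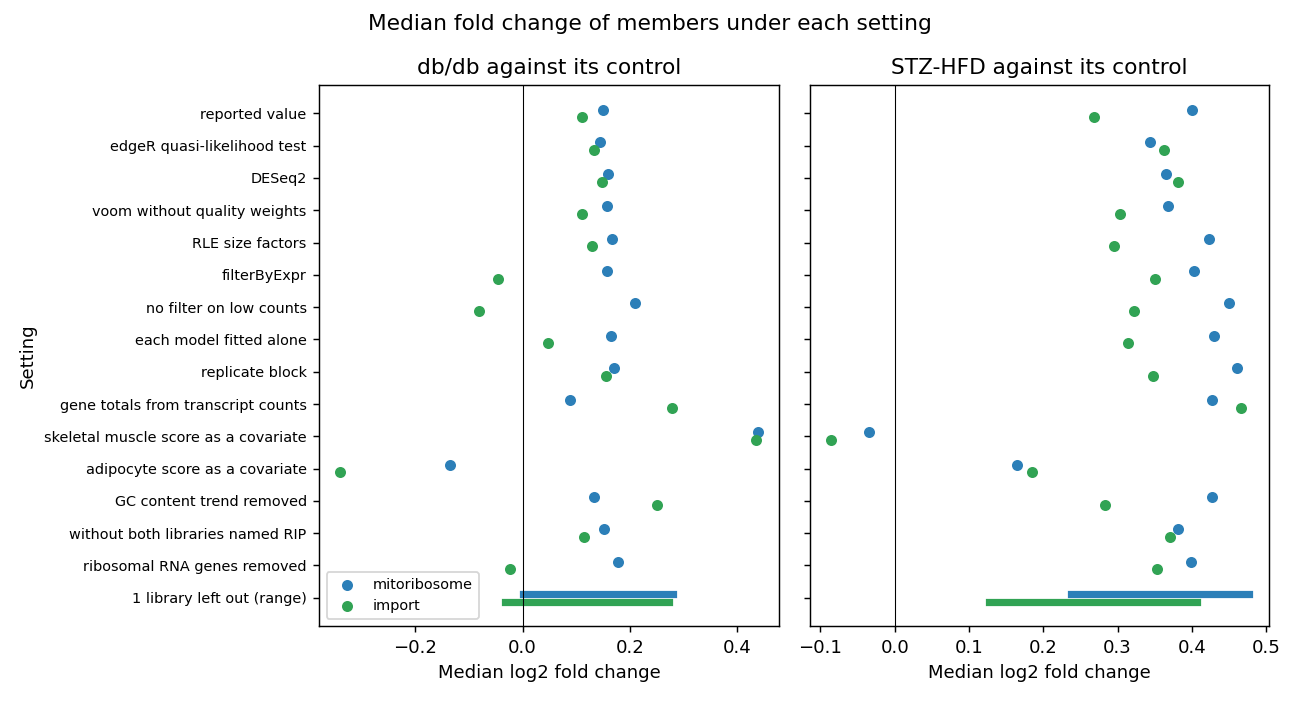
Median log2 fold change (x axis) of the tested mitoribosome (blue) and import (green) members in db/db (left) and STZ-HFD (right) under each setting (y axis), with bars for the range when 1 library is left out. The STZ-HFD medians stay above 0 except with the skeletal muscle score, where they are -0.03 and -0.09.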

How the data were processed

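RNA-seq libraries of 14 mice were grouped by their labels. Per the labels and the study's methods, the authors aligned the reads with STAR to the mouse genome (GRCm38), counted them per gene with featureCounts, and deposited whole-number counts per gene without normalization. The expected counts per transcript that the authors deposited were estimated with Salmon; they were summed per gene, rounded and used for 1 alternative and for the comparison of totals. Whether counting used strand is not given in the sources used here. The gene table held 55774 lines, of which 287 repeated an identifier with identical values and were used once. Positions, exon lengths and GC content came from GENCODE M21, which held 55227 of the 55487 genes.

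Levels are CPM scaled by TMM factors, over the summed counts of the tested genes. The 16915 genes that exceeded 1 CPM in 3 or more libraries were tested with voomWithQualityWeights (R 4.3.3, edgeR 4.0.16, limma 3.58.1, DESeq2 1.42.0), as in the study, with 4 group means over all 14 libraries and Benjamini-Hochberg adjustment within each contrast. Called means that the adjusted p was under 0.05 and the log2 fold change 1 or more in size. Tests were tried on simulated data. Each library is 1 mouse, and all carry the same batch label.

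The members, the lists, the motifs and the naming rule were chosen with earlier results of these data known. The rule named members called in a contrast, the highest and lowest fold changes and levels of each family, paralogs, core translocase genes, and called and extreme genes of each list. Same-numbered mice of 2 groups did not vary together (correlations of -0.28 to 0.19 in the db model and -0.26 to -0.04 in the other), so the numbers were not used as pairs. The paper calls the db/+ mice littermate controls, and which mice shared a litter is not given in the labels. Protein sequences were not used here. The alternatives comprised DESeq2, edgeR's quasi-likelihood test, unweighted voom, RLE size factors, other filters, each model alone, a replicate block, transcript totals, muscle or adipocyte scores, GC correction, removal of ribosomal RNA genes, no fold minimum, and leaving out libraries.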

Additional observations from a re-analysis of the deposited data

Results flagged for a closer look

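Among 66 groups of 4 libraries checked, 1 value stood apart from the other 3 in 3 groups, and chance gives about 1 in 20. In STZ-HFD, Mrpl32 was at 2.82 CPM in replicate 2 while the other 3 libraries were at 6.62 to 7.03 CPM, and Mrps27 was at 0.863 CPM in replicate 1 while the others were at 2.50 to 2.72 CPM. In Con+Veh, Timm44 was at 32.7 CPM in replicate 1, the library with the lowest quality weight (0.275), while the others were at 14.1 to 16.9 CPM.

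In limma's test of the difference of contrasts, 6 of the 268 tested genes of the related lists (2.24%) had an adjusted p under 0.05, a share near the 1.77% of all genes. Gatb, a subunit of the complex that charges the mitochondrial transfer RNA for glutamine, differed by -1.86 on the log2 scale (adjusted p 0.025). Its level was 1.92, 2.71 and 3.22 CPM in db/db and 4.66, 6.02 and 4.31 CPM in db/+, and 6.16 to 8.21 CPM in STZ-HFD and 2.88 to 4.56 CPM in Con+Veh, so the groups did not overlap in either model. Aars2 differed by -2.55 (adjusted p 0.032), between -1.72 for db/db and 0.83 for STZ-HFD. The muscle isoform gene Cox7a1 differed by -1.47 (adjusted p 0.045), and the cytosolic ribosomal protein genes Rps27a, Rpl41 and Rpl32 by 1.69, 1.42 and 1.43 (adjusted p 0.031, 0.031 and 0.045). Gatb, Rpl41 and Rpl32 were singled out after their values were seen. Of the members of the mitoribosome and of import, 0 passed this test.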

How the results depend on the processing

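The STZ-HFD medians stayed positive in every alternative but 1. With the skeletal muscle score as a covariate they were -0.0345 (mitoribosome) and -0.0863 (import), and the db/db medians became 0.439 and 0.436. With the adipocyte score the db/db medians were -0.136 and -0.34. The db/db import median, 0.11, was also -0.0462 with filterByExpr, -0.0807 without a filter on low counts and -0.0234 without ribosomal RNA genes, and -0.0323 to 0.27 over the libraries left out in turn, the lowest without db/db replicate 1, while that of the mitoribosome was 0.0016 to 0.28. Without a filter the median of all genes was itself -0.18 for db/db and -0.36 for STZ-HFD. The cause of these shifts was not tested.

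The counts of called members moved from 0 as follows. In db/db, 1 mitoribosome gene (Mrps27) was called without a filter on low counts, and 3 (Mrpl34, Mrpl43, Mrps6) and 1 import gene (Tomm70a) with each model fitted alone, which called 2.84% of all genes. Import had 1 call with RLE size factors (Tomm40), without a filter (Tomm70a) and without both libraries whose names share the ending RIP (Tomm40). In STZ-HFD, DESeq2 called 1 (Mrps35), and 1 mitoribosome and 1 import gene passed with no minimum on the fold change (Mrpl33, Timm17a). With the GC trend removed, 1 import gene (Timm17a) passed for the difference of contrasts. Leaving out 1 library gave 0 to 1 mitoribosome and 0 to 1 import calls in db/db (Mrps27 without db/+ replicate 3 or Con+Veh replicate 4, Mrps6 and Tomm70a without STZ-HFD replicate 3, Tomm40 without Con+Veh replicate 2), 0 to 1 mitoribosome calls in STZ-HFD (Mrpl3 without Con+Veh replicate 2) and 0 to 2 for the difference (Mrpl12 and Mrpl2 without db/+ replicate 3).

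With the replicate number as a block, 7 mitoribosome and 4 import members were called for db/db and 0 for STZ-HFD, while the block called 8.77% of all genes in db/db, against 1.66% without it. The labels do not say that equal numbers pair mice, and same-numbered mice did not vary together.

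For 31 members named singly, 1735 values under alternatives included 77 with the other sign, all without passing the test in either setting, and 0 that turned while past it. Depth limits the low genes most, since 3 counts were worth up to 0.163 CPM.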
